A study of Mus musculus with 12 samples.

Results

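The 9 genes described here encode the subunits of cohesin, 4 of them specific to meiosis (*Smc1b*, *Rad21l*, *Rec8* and *Stag3*) and 5 of them used in dividing cells in general (*Smc1a*, *Smc3*, *Rad21*, *Stag1* and *Stag2*). They were picked out by gene symbol among the 20981 gene rows of each gene table, a rule that uses no measured value, although the set was proposed with earlier results of these data known, and all 9 were listed in every table. Cohesin is a ring made of an SMC1 protein, SMC3, a kleisin that closes the ring and a STAG protein that binds the kleisin, and it holds sister chromatids together until they separate. In germ cells that enter meiosis, SMC1B can take the place of SMC1A, REC8 or RAD21L that of RAD21, and STAG3 that of STAG1 or STAG2. SMC3 has no meiotic counterpart. The meiotic rings form the chromosome axes on which the synaptonemal complex joins homologous chromosomes.

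The RNA came from testes of C57BL/6 *Mael*-/- mice, 3 months of age by their labels, so every group lacked *Mael*, a gene of the piRNA pathway that silences L1 retrotransposons, and no group of another genotype was analysed here. TOTAL is RNA of the clarified extract brought to 10 mM EDTA, which takes ribosomes apart. INPUT is RNA of the pooled sucrose gradient fractions 5 to 8 of such extracts. IP is RNA bound from INPUT by beads coupled to a rabbit monoclonal antibody to ORF1p, the RNA-binding protein that L1 encodes, and BO (beads only) is RNA bound from INPUT by beads with no antibody. Less RNA entered the IP libraries than those of TOTAL and INPUT. Each group had 3 libraries, 12 in all, and the labels do not say whether the replicates of a group came from separate animals.

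The gene tables give the authors' mean of DESeq2-normalized counts over the 3 libraries of a group, not the value of each library. The spread between libraries was therefore not computed and no test between groups was run here, as the authors' own comparison statistics in these tables were not used. Each gene value below is a mean or rests on ratios of such means. Low values in the tables are multiples of the worth of 1 read in each library (0.209 to 0.502 units of the mean), which bounds the reads behind a mean and gives an upper limit for its counting error, and this error leaves out the differences between libraries. *Mael* had a mean of 0.65 in TOTAL, 0.502 in BO and 0 in INPUT and IP. In the table of repeat subfamilies, which does give each library, L1Md_A was at 95645, 75201 and 56029 in the IP libraries and at most at 27258 in the other 9. BO replicate 3 stood apart, with 52.1% of its repeat signal on the large subunit rRNA against 1.93% to 15.9% in the other 11 libraries, and no BO value of a gene could be computed without it.

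Reads of 75 nt were counted on genes, and the subunits are families of related sequence, so the closest stretches of that length were read from the GENCODE M21 transcripts (mm10) to show how far paralogs can be told apart. No 75-base stretch of 8 of the 9 longest transcripts occurred in a transcript of another gene, and in *Smc3* 0.38% of them did, shared with the annotated gene Gm11204. The most similar coding windows of the SMC1 pair lie at chr15:85069737-85070794 (minus strand, exons 21 and 22) in *Smc1b* and at chrX:152059498-152059687 (plus strand, exons 21 and 22) in *Smc1a*, with 61 of 75 bases identical. Capitals mark the bases that differ in an alignment without gaps.
Smc1b: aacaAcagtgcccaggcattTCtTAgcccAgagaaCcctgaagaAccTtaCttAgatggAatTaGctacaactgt
Smc1a: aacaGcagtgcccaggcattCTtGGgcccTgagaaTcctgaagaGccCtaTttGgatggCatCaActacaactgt

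For the kleisins, the closest windows lie at chr2:151667940-151668014 (minus strand, exon 2) in *Rad21l* and at chr15:51978079-51978153 (minus strand, exon 3) in *Rad21*, again with 61 of 75 bases identical. *Rec8* is the more distant kleisin, and its closest window shared 41 of 75 bases with *Rad21*. The *Rad21l* and *Rad21* windows are shown because the largest shift between paralogs below is theirs, and capitals mark the differing bases.
Rad21l: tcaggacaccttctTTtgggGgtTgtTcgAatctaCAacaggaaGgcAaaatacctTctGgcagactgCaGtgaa
Rad21: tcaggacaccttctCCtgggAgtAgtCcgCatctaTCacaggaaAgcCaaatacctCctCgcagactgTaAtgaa

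For the STAG genes, the general pair was the most alike, with 66 of 75 bases identical between the windows at chr9:100942656-100942730 (plus strand, exon 26) in *Stag1* and at chrX:42258044-42258118 (plus strand, exon 26) in *Stag2*. *Stag3* shared at most 62 of 75 bases with *Stag1*, at chr5:138290866-138291356 (plus strand, exons 7 and 8) in *Stag3*, and 61 with *Stag2*. Differing bases between *Stag1* and *Stag2* are in capitals.
Stag1: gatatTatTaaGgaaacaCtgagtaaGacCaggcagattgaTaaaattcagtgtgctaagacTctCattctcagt
Stag2: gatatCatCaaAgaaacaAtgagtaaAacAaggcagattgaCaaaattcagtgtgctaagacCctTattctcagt

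At these windows a read of full length would still differ at 9 bases or more between paralogs. No exon of a subunit overlapped an exon of another gene on the same strand, and *Stag2* overlapped Gm37564 on the opposite strand, whose reads cannot be told apart if counting did not use the strand, which the sources used here do not state.

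The members lie on 7 chromosomes of mm10. *Smc1b* spans chr15:85064689-85131964 and *Rad21* chr15:51962240-51991747, both on the minus strand, and *Rad21l* chr2:151645404-151668533 on the minus strand. *Rec8* spans chr14:55618037-55625395, *Stag3* chr5:138280240-138312393, *Smc3* chr19:53600398-53645833 and *Stag1* chr9:100597798-100959375, all on the plus strand. *Smc1a* (chrX:152016428-152062694) and *Stag2* (chrX:42149317-42277185) are X-linked, also on the plus strand. The longest annotated transcript ranged from 1659 nt for *Rad21l* to 6186 nt for *Stag1*, and that of *Rad21l* ends at its stop codon, while the RefSeq gene goes on for 1038 bases at the 3′ end, so its level per kb may be overstated.

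In TOTAL, the RNA of *Smc1b*, the meiotic SMC1, had the highest level per length of the 9 subunits, with a mean normalized count of 1472 per kb of its longest transcript. *Rad21*, the general kleisin, followed with 1358 per kb, then *Smc3* with 990, *Stag1* with 844, *Stag3* with 759 and *Stag2* with 701. *Rad21l* was at 398 per kb, *Smc1a* at 292 and *Rec8* at 130. By this length meiotic subunits stood at both ends of the order. Testis is a mixture of cell types, so in these levels fewer cells of a type and less RNA per cell cannot be told apart. With coding length in place of transcript length, *Rad21* (2820 per kb) stood above *Smc1b* (1591 per kb), and with the median transcript length *Smc3* (6907 per kb) was highest and *Smc1b* was the 5th of 9, so the order depends on the transcript model, with *Rec8* lowest by each of the 3 lengths.

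In IP, on the scale of the table that holds TOTAL, *Smc1b* was at 9098 per kb, *Stag3*, the meiotic STAG, at 4814, *Smc3* at 3600 and *Stag1* at 3297. *Rad21l* was at 2769 per kb, *Stag2* at 1051, *Rad21* at 738, *Smc1a* at 551 and *Rec8* at 80.9. *Rad21* thus went from the 2nd place of 9 in TOTAL to the 7th in IP, and *Rad21l* from the 7th to the 5th. By coding length *Rad21* went from the 1st place to the 7th and *Rad21l* from the 7th to the 5th, and by median transcript length *Rad21* went from the 6th to the 8th and *Rad21l* from the 8th to the 7th. With INPUT and BO brought to that scale through the IP mean that all tables hold, in INPUT the highest level was that of *Stag3* (1720 per kb), and in BO that of *Stag2* (1434 per kb), while *Rec8* was the lowest of the 9 in all 4 groups.

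**Figure D1:**
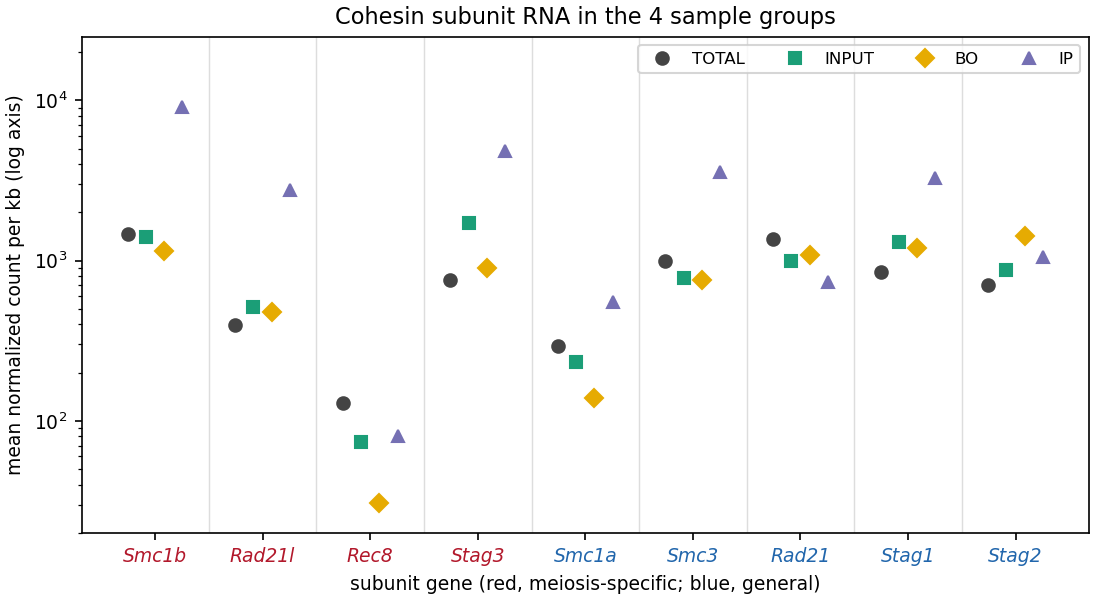
Mean normalized count per kb of the longest transcript (log axis) for each subunit in TOTAL, INPUT, BO and IP, on the scale of the IP and TOTAL table; each point is a mean over 3 libraries, with no spread known. *Smc1b* reached 9098 per kb in IP, and *Rec8* lay lowest in every group, between 30.5 and 130 per kb.

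The comparison of IP with BO sets the RNA bound with the antibody against what beads without it hold. Counts were normalized between libraries, so the ratio compares the make-up of these RNA pools and not the amounts bound. *Smc1b* had a mean normalized count of 28210 in IP and 3574 in BO, a log2 ratio of 2.98 (counting SE at most 0.018). *Rad21l*, a kleisin of early meiotic axes, was at 3522 in IP and 603 in BO, a log2 ratio of 2.54 (at most 0.044). *Stag3* was at 17208 and 3235, a log2 ratio of 2.41 (at most 0.019). These 3 meiotic subunits were above at least 93.0% of the 14135 genes with a mean of at least 10 in either group, the minimum used here and passed by all 9 subunits in every comparison. *Rec8*, the kleisin that keeps sister centromeres together through the first division, was at 135 and 51.0, a log2 ratio of 1.39 (at most 0.16) that rested on 102 to 213 BO reads and stood above 68.6% of genes.

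Among the general subunits, *Smc3*, which is part of every cohesin ring, had 13371 in IP and 2817 in BO, a log2 ratio of 2.25. *Smc1a* was at 1977 and 497, a log2 ratio of 1.99, and *Stag1* at 15621 and 5695, a log2 ratio of 1.46. *Rad21* and *Stag2* had the lower mean in IP. *Rad21* was at 2236 in IP and 3279 in BO (log2 ratio -0.55), and *Stag2* at 4966 and 6773 (log2 ratio -0.45). They stood above 17.8% and 19.6% of genes.

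In all, 7 of 9 subunits were more than 2-fold higher in IP than in BO and 0 were more than 2-fold lower. Of all genes, 44.3% were past 2-fold higher and 11.4% past 2-fold lower, and the median gene had a log2 ratio of 0.82, so a ratio above 2 was common in this comparison. The median log2 ratio was 2.48 over the meiotic and 1.46 over the general subunits. With the median gene set to 0, 5 subunits were past 2-fold higher (*Smc1b*, *Rad21l*, *Stag3*, *Smc1a* and *Smc3*) and 2 past 2-fold lower (*Rad21* and *Stag2*), and of all genes 2600 were higher and 3475 lower, where 6262 and 1616 were before.

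The comparison of IP with INPUT sets the bound RNA against the fractions it was taken from. *Smc1b* was at 36963 in IP and 5703 in INPUT, a log2 ratio of 2.70 (counting SE at most 0.012), above 99.5% of the 14809 genes tested. *Rad21l* was at 4617 and 861, a log2 ratio of 2.42 (at most 0.031), above 99.0% of genes. *Smc3* was at 17514 and 3797, a log2 ratio of 2.21, above 98.1%. *Smc1b*, *Rad21l* and *Smc3* thus lay near the top of all genes. *Stag3* (22554 and 8060) had a log2 ratio of 1.48, *Stag1* (20472 and 8168) 1.33 and *Smc1a* (2590 and 1092) 1.24, between the 85.4th and the 90.0th percentile.

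*Stag2*, *Rec8* and *Rad21* lay within 2-fold. *Stag2* was at 6509 in IP and 5398 in INPUT (log2 ratio 0.27), *Rec8* at 177 and 162 (0.13, counting SE at most 0.096), and *Rad21* at 2930 and 3965 (-0.44). The sign of *Stag2* and of *Rec8* depended on the scaling, with lowest values of -0.26 and -0.40. The count past 2-fold was 6 of 9 higher and 0 lower, against 20.7% higher and 15.3% lower of all genes, with medians of 1.95 over the meiotic and 1.24 over the general subunits beside 0.14 over all genes. Scaled by the sum of gene means, 3 subunits (*Smc1b*, *Rad21l* and *Smc3*) were past 2-fold higher, and of all genes 1392 were higher and 4283 lower, where 3060 and 2273 were before.

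The comparison of IP with TOTAL sets bound RNA against that of the whole extract. *Rad21l* was at 4594 in IP and 660 in TOTAL, a log2 ratio of 2.80 (counting SE at most 0.035) and 6.95-fold. *Stag3* was at 22477 and 3543 (log2 ratio 2.67) and *Smc1b* at 36818 and 5958 (2.63). These 3 stood above at least 98.9% of the 15150 genes tested. *Rec8* did not share this, with 177 in IP and 283 in TOTAL, a log2 ratio of -0.68 (at most 0.086) above 34.4% of genes.

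Of the general subunits, *Stag1* (20396 in IP and 5221 in TOTAL) had a log2 ratio of 1.97 and *Smc3* (17463 and 4800) of 1.86, above 95.2% and 94.2% of genes. *Smc1a* (2582 and 1371) had 0.91 and *Stag2* (6485 and 4324) 0.58, both within 2-fold. *Rad21* (2921 and 5371) had the lowest ratio of the 9, at -0.88. Past 2-fold, 5 of 9 were higher and 0 lower, beside 20.5% and 27.1% of all genes and a median gene at -0.05. The median was 2.65 over the meiotic and 0.91 over the general subunits, a gap of 1.73, but *Rec8* lay below 4 of the 5 general subunits. Scaled by the sum of gene means, *Rec8* and *Rad21* were past 2-fold lower, and of all genes 1522 were higher and 5882 lower, where 3102 and 4102 were before. The 3 comparisons share the IP libraries.

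**Figure D2:**
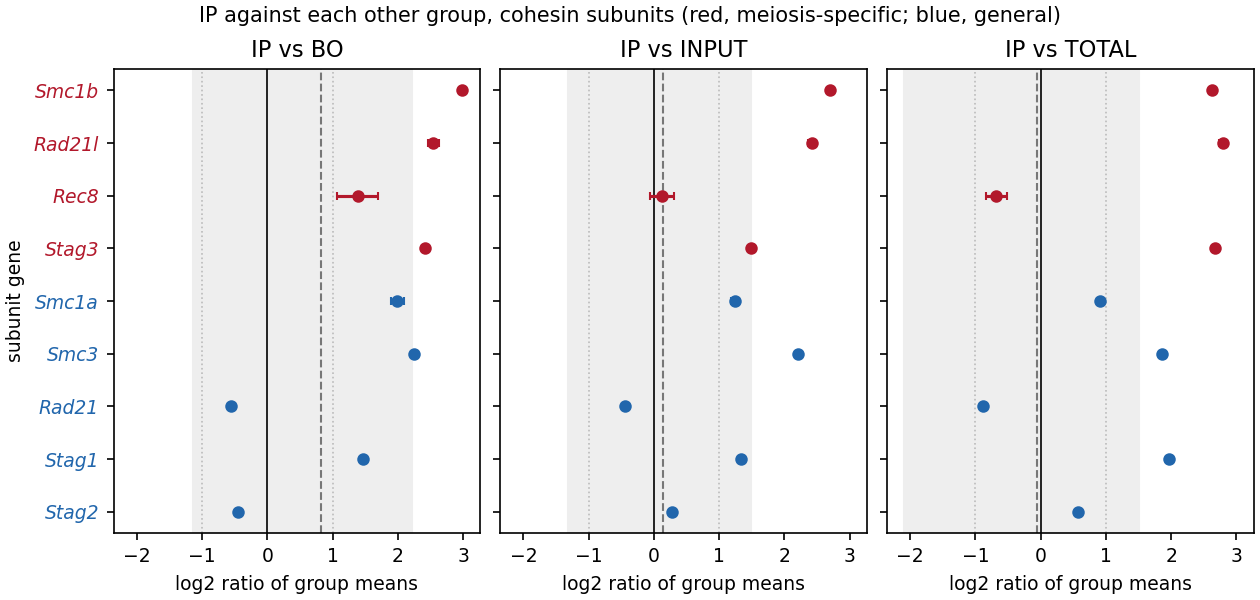
Log2 ratio of the group means (mean plus 1) of IP against BO, INPUT and TOTAL for each subunit; bars are 95% intervals for counting error only, and mostly lie within the points. The gray band spans the 10th to 90th percentile of all genes tested, the dashed line is the median gene (0.82, 0.14 and -0.05), and dotted lines mark 2-fold; the meiotic *Smc1b* and *Rad21l* and the general *Smc3* lie to the right of the band in each panel, and *Rad21* lies below 0.

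INPUT against TOTAL and BO against INPUT come from chaining the tables through their common IP mean. *Stag3* was the single subunit past 2-fold higher in INPUT than in TOTAL, with 8030 and 3543 on the common scale, a log2 ratio of 1.18 above 99.1% of genes, while 2.42% of all genes were past 2-fold higher and 18.8% lower. *Stag1* had 0.64, *Rad21l* 0.38, *Stag2* 0.31, *Smc1b* -0.07, *Smc1a* -0.33, *Smc3* -0.34, *Rad21* -0.44 and *Rec8* -0.81. Against INPUT, BO had a higher mean of *Stag2* (8846 and 5378, log2 ratio 0.72) and a lower mean of *Rec8* (66.6 and 161, log2 ratio -1.26). *Stag3* (4225 and 8030) was at -0.93 and *Smc1a* (649 and 1088) at -0.75, and the other subunits lay between -0.28 and 0.12. Of the 9, *Rec8* alone was past 2-fold. Of all genes 9.41% were past 2-fold higher and 35.1% lower there, and the median gene was at -0.58. Which subunits passed 2-fold depended on the scaling. Centred on the median gene, *Rec8* was at -0.68 and *Stag2* at 1.30, past 2-fold higher, and with the ratio taken straight from the separate tables *Rec8* (-1.65), *Stag3* (-1.32) and *Smc1a* (-1.14) were past 2-fold lower.

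Ratios between paralogs within a group do not depend on how groups were scaled. *Smc1b* reads outnumbered *Smc1a* reads 4.35-fold in TOTAL, 5.22-fold in INPUT, 7.20-fold in BO and 14.3-fold in IP. *Rad21l* reads were 0.123 times the *Rad21* reads in TOTAL, 0.217 times in INPUT and 0.184 times in BO, and outnumbered them 1.57-fold in IP. The IP to TOTAL shift of this kleisin ratio was 3.68 on the log2 scale (counting SE at most 0.041), or 12.8-fold, the largest of the 5 pairs compared. That of *Smc1b* to *Smc1a* was 1.71.

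*Rec8* had far fewer reads than *Rad21* in each group, with 0.0527 times as many in TOTAL, 0.0409 in INPUT, 0.0156 in BO and 0.0605 in IP. The shift of this ratio from TOTAL to IP was 0.20 (counting SE at most 0.089). Both genes had the lower mean in IP there, with log2 ratios of -0.68 for *Rec8* and -0.88 for *Rad21*. *Stag3* to *Stag1* shifted by 0.70 between TOTAL and IP, from 0.679 to 1.10 times, and *Stag3* to *Stag2* by 2.08, from 0.819 to 3.47 times. In INPUT these STAG ratios were 0.987 and 1.49 times, and their shifts from INPUT to IP were 0.16 and 1.21. In BO, *Stag3* was lower against both general STAG genes than in INPUT, at 0.568 times *Stag1* and 0.478 times *Stag2*. All 5 pairs had a higher ratio in IP than in BO, INPUT and TOTAL, but pairs that share *Rad21* or *Stag3* are not separate cases.

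**Figure D3:**
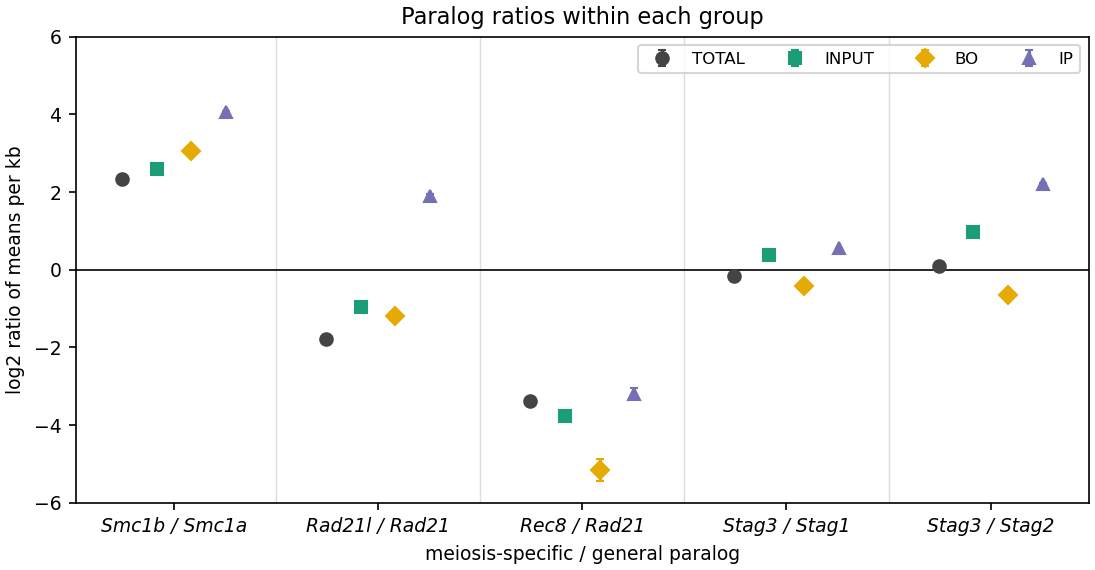
Log2 ratio of meiosis-specific to general paralog, per kb of the longest transcript, within TOTAL, INPUT, BO and IP; bars are 95% intervals for counting error only. The IP point is the highest of each pair, and *Rad21l* to *Rad21* goes from -1.77 in TOTAL to 1.91 in IP.

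Per length, the SMC1 transcripts were 83.4% *Smc1b* in TOTAL and 94.3% in IP. Of the kleisin transcripts, *Rad21l* made up 21.1% in TOTAL, 32.5% in INPUT, 29.9% in BO and 77.2% in IP, and *Rad21* 72.0% in TOTAL and 20.6% in IP. *Rec8* was 6.9% of kleisin transcripts in TOTAL and 2.3% in IP. Of the STAG transcripts, *Stag3* was 32.9% in TOTAL, 44.0% in INPUT, 25.6% in BO and 52.5% in IP. From TOTAL to IP, *Stag1* went from 36.6% to 36.0% and *Stag2* from 30.4% to 11.5%. With coding lengths the *Rad21l* share was 11.8% in TOTAL and 62.9% in IP. With median transcript lengths it was 13.2% and 65.6%, and the *Smc1b* share 55.1% and 80.1%. The share of *Smc1a* was then 44.9% in TOTAL, where it was 16.6% by the longest transcript, and that of *Rec8* 12.0% and 5.3%. The shares thus depend on the transcript model. That *Smc1b* and *Rad21l* held a larger share in IP than in TOTAL does not, since a gene's length is the same in both groups. The 3 lengths are therefore no separate support for it.

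Genes that regulate or work with cohesin, among them those that load, protect or cut it, were listed as 16 regulators. In IP, 8 of them were more than 2-fold above BO, 10 above INPUT and 11 above TOTAL, and 1 was more than 2-fold below TOTAL. Of all genes, 44.3%, 20.7% and 20.5% were past 2-fold higher in these comparisons and 27.1% lower than in TOTAL, so the share of 8 of 16 above BO was near that of all genes. The regulators' median log2 ratios were 0.96, 1.13 and 1.59, beside 0.82, 0.14 and -0.05 over all genes. *Meikin*, which protects centromeric cohesin in meiosis I, had the highest ratio against TOTAL (163 in IP and 31.7 in TOTAL, log2 ratio 2.33), and *Sgo2a*, the shugoshin that shields REC8 from separase, had 2.32 (5365 and 1072). *Espl1*, separase itself, had 2.02 and *Pttg1*, its inhibitor securin, the lowest ratio, -2.37 (119 and 621). *Nipbl*, the cohesin loader, had 1.96, *Pds5b* 1.79 and *Wapl*, which releases cohesin, 1.52 against TOTAL. Against BO, *Nipbl* had 0.81, *Pds5b* 0.64 and *Wapl* -0.11, all within 2-fold and below the median gene at 0.82.

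The other SMC complexes were set beside cohesin, with the same shares of all genes past 2-fold higher (44.3% against BO, 20.7% against INPUT and 20.5% against TOTAL). All 8 condensin genes were past 2-fold higher in IP than in BO, 6 than in INPUT and 7 than in TOTAL, where the median was 2.35. Against BO the condensin ratios ran from 1.12 (*Ncapg2*) to 2.74 (*Ncapg*), with the median gene at 0.82. The count of 8 there thus depends on the scaling. *Ncaph*, the condensin I kleisin, was highest against TOTAL (2.79) and *Ncaph2*, the condensin II kleisin, lowest (-0.03). Of the 7 genes of the SMC5/6 complex, 5, 4 and 2 were past 2-fold higher in IP than in BO, INPUT and TOTAL, and the count against TOTAL was near the share of all genes. *Smc5* was highest (1.65) and *Nsmce1* lowest (-1.68) against TOTAL, and 4 of the 7 were past 2-fold lower in INPUT than in TOTAL, as were 18.8% of all genes.

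**Figure D4:**
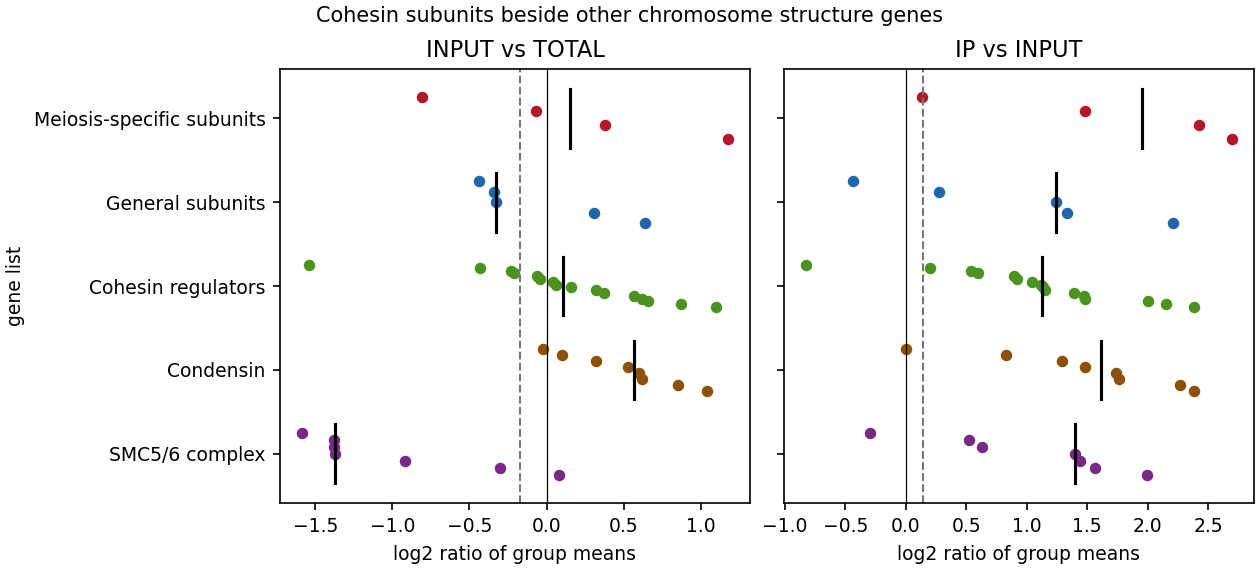
Log2 ratio of group means for each gene of 5 lists in INPUT against TOTAL and in IP against INPUT; each point is a gene, the black bar the list median and the dashed line the median of all genes (-0.17 and 0.14). In INPUT against TOTAL the SMC5/6 median is -1.37 and the condensin median 0.56.

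Meiotic subunits are made in germ cells, general subunits in most cells, and markers of the testis cell types were followed across the same groups. The spermatocyte markers (*Sycp1*, *Sycp2*, *Sycp3*, *Hormad1*, *Spo11*, *Mlh3* and *Piwil1*) were past 2-fold higher in IP than in TOTAL for 7 of 7 (20.5% of all genes), than in BO for 6 of 7 (44.3%) and than in INPUT for 6 of 7 (20.7%), and their summed means were 26061 in TOTAL, 30952 in INPUT, 18855 in BO and 154913 in IP. Of 7 Sertoli cell markers 5, and of 6 Leydig cell markers 6, were past 2-fold lower in IP than in TOTAL, as were 27.1% of all genes. The Sertoli sum was 100252 in TOTAL, 105686 in INPUT, 36561 in BO and 30312 in IP, and the Leydig sum 80412, 43961, 8079 and 15513. *Clu* made up 66084 of the Sertoli sum in TOTAL and 78062 in INPUT, and the median Sertoli log2 ratio of INPUT against TOTAL was -0.4. Against BO, where 44.3% of all genes were higher and 11.4% lower and the median gene was at 0.82, 0 Sertoli markers were higher and 3 lower (median log2 ratio -0.11), while 2 Leydig markers were higher (*Cyp17a1* 1.53 and *Cyp11a1* 1.39) and 1 lower (median 0.44). Of 6 spermatogonia markers 0 were higher and 1 lower than in TOTAL, where the share lower was not above the 27.1% of all genes and 20.5% of all genes were higher, and 1 was higher and 2 lower than in BO, with sums of 6378 in TOTAL, 5963 in INPUT, 8373 in BO and 3864 in IP. Of the 6 spermatid markers, 5 passed the minimum mean through TOTAL alone, so that a lower IP value was fixed by the filter and no count is read from them. The protamine and transition protein genes had means of at most 39.3 in TOTAL and at most 0.859 in IP, where *Prm2* was at 0. *Spaca1*, the spermatid marker that passed the minimum in every comparison, went otherwise, at 231 in TOTAL and 233 in IP. Its log2 ratio was 2.1 against BO and 1.48 against INPUT. The part of these cell types in the subunit ratios was not tested.

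The 5 genes whose log2 ratios against BO, INPUT and TOTAL lay nearest to the medians of the meiotic subunits, by Euclidean distance among 10254 genes with an IP mean of at least 100, were *Nek2*, *Med23*, *Rps6ka6*, *Tdrd5* and *Brdt*, with distances from 0.115 to 0.198. *Nek2* had log2 ratios of 2.47, 2.07 and 2.65. Those nearest to the medians of the general subunits were *Zfp207*, *Cyb5d2*, *Mapkap1*, *Pacsin2* and 1810055G02Rik, with distances from 0.06 to 0.119. *Zfp207* had log2 ratios of 1.46, 1.19 and 0.88. The search covers 3 ratios that share the IP libraries. Class medians were taken per comparison and need not match any single subunit. *Rec8* had 1.39, 0.13 and -0.68, where the meiotic medians were 2.48, 1.95 and 2.65.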

How the data were processed

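RNA-seq of TOTAL, INPUT, BO and IP samples of *Mael*-/- testes (3 libraries per group) was analysed from processed tables. The authors prepared stranded, rRNA-depleted libraries, read single ends of 75 nt, mapped them to mm10 with STAR 2.6.0c and normalized counts with DESeq2 1.24.0, and the annotation used for counting is not given in the sources used here. The deposited signal for genes is the mean normalized count of each group, to 3 decimals, in 3 tables that each compare IP with another group. These tables also hold the authors' fold changes, standard errors, statistics and p-values, which were not used. The deposited signal for repeats is an upper-quartile-normalized count per subfamily in each library, used as a check of the labels only.

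The 9 members and the gene lists were chosen with earlier results of these data known. The test planned on values per library could not be run, since the gene tables give none. Each table has 802920 rows, of which 20981 name genes. The 4 rows of unassigned reads (unmapped, multimapping, no feature and ambiguous) were left out. They held 22.1% of the summed means of gene and unassigned rows in IP and up to 38.6% in TOTAL. The log2 ratio of group means was computed with a pseudocount of 1 for genes that reached a mean of 10 in either group, and a gene was counted when past 2-fold. Log2 ratios of low genes are understated on this scale. Tables were normalized separately and joined by the ratio of their IP means over 10263 genes (median 1.3062 for the BO table and 0.9963 for the INPUT table). The worth of 1 read in each library was taken as the 3 commonest low values of a column. Reads without molecular identifiers are not independent molecules, so intervals (95%) cover counting error only. Lengths, windows and positions are from GENCODE M21, which matched 19888 of the gene symbols.

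All members were named, with the highest and lowest gene of each list against TOTAL, *Nipbl*, *Wapl*, *Pds5b*, *Espl1* and *Sgo2a*, and the 5 nearest genes of each class. Older symbols in the tables were matched through RefSeq synonyms. Alternatives were pseudocounts of 0.1 and 10, centring on the median gene, scaling by the upper quartile or the sum of gene means, no filter, a mean of at least 100, a 1.5-fold threshold, unchained ratios and other lengths. Scripts (Python 3.11.15, pandas 2.3.3, numpy 2.4.6) were tested on simulated data.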

Additional observations from a re-analysis of the deposited data

How the results depend on the processing

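No paired analysis was possible because the gene tables give no value for single libraries, and for the same reason no replicate could be left out. Centred on the median gene, IP against BO had 2 subunits past 2-fold lower, with 2600 genes higher and 3475 lower. Scaled by the upper quartile of gene means, it had 5 subunits and 3455 genes higher, and 2 subunits and 2953 genes lower. At 1.5-fold, 2435 genes were lower. Against INPUT, upper quartile scaling gave 4 subunits and 1842 genes higher and 3481 genes lower, with *Smc1a* (0.89) and *Stag1* (0.97) within 2-fold. Scaling by the sum of gene means gave 3 subunits and 1392 genes higher and 4283 genes lower. A mean of at least 100 gave 1358 genes lower, and a 1.5-fold threshold gave 5084 genes higher and 3782 lower. Against TOTAL, 1 subunit (*Rad21*) and 4526 of 15150 genes were lower under upper quartile scaling. Scaling by the sum gave 2 subunits (*Rec8* and *Rad21*) and 5882 genes lower, and left 1522 genes higher. At 1.5-fold, 6 subunits and 4792 genes were higher, and 2 subunits and 5526 genes were lower. These shifts follow from the construction of each setting, which moves all ratios of a comparison together or moves the threshold or the genes tested. The gap between class medians cannot move with the scaling, by construction. With pseudocounts of 0.1 and 10, all 30 values for single subunits and class gaps at each setting kept their place within counting error. No ratio of a subunit past 2-fold changed sign under any scaling tried. In BO against INPUT, the subunits past 2-fold were *Rec8* as reported, *Stag2* (higher) when centred, and *Rec8*, *Stag3* and *Smc1a* (lower) with the straight ratio, and in INPUT against TOTAL *Stag3* stayed between 1.18 and 1.35. *Rec8* rests on the fewest reads, and its ratio against BO ranged from 0.56 to 1.40.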

Other observations

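The subunit transcripts differ in base composition, which the gene symbols used to choose them do not reflect. Adenine made up 36.74% of the longest *Smc1b* transcript, above 99.8% of the 14448 genes with a length that were tested in IP against TOTAL. Of the other 8 subunits, 7 lay between the 49.7th percentile (*Stag3*) and the 98.5th (*Stag2*). *Rec8* was the exception, with 22.76% adenine (24.3rd percentile) and 56.73% GC (85.7th percentile). *Rec8* is also short, at 2184 nt, against a median of 3351 nt over genes, but *Rad21l* is shorter. Across genes, which are not independent replicates, Spearman's rho of transcript length with the log2 ratio was 0.64 in INPUT against TOTAL, 0.45 in BO against INPUT, 0.42 in IP against TOTAL, 0.07 in IP against INPUT and -0.36 in IP against BO. For adenine content it was 0.42 in BO against INPUT, 0.29 in IP against INPUT, 0.18 in IP against TOTAL, -0.07 in INPUT against TOTAL and -0.11 in IP against BO, so its sign differed between comparisons. For GC content it was -0.47 in BO against INPUT, -0.26 in IP against INPUT and -0.15 in IP against TOTAL. It was 0.08 in INPUT against TOTAL and 0.18 in IP against BO. These are descriptions across genes that share libraries, and the part of length or composition in the subunit ratios was not tested.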
